A study of Homo sapiens with 8 samples.

Results

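The lysosome and autophagy machinery was followed through 51 genes, chosen by name from a list of lysosomal membrane and cholesterol proteins (7 genes), the transcription factors of lysosome biogenesis (3), acid hydrolases and their activators (17), the proton pump (13), autophagy genes (10) and the late endosome GTPase *RAB7A*. They are 51 of the 63241 genes that the NCI-H716 tables list. RNA was sequenced from HCT116 and NCI-H716, established human colorectal cancer cell lines, each as a control group and as a group treated with Z325 (ZINC000101867325), a small molecule proposed from docking as an inhibitor of fibroblast growth factor receptors. Each of the 4 groups had 2 libraries, made by SMART-Seq2 amplification from about 100 cells each, and the labels call the groups Control and Test. The labels give neither a dose nor a treatment time, and each line is 1 genetic background. The paper calls the libraries biological duplicates, but nothing ties them to separate cultures, so p-values measure the spread between these libraries, which may be technical.

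Lysosomes break down macromolecules with hydrolases that work only at acid pH, and the vacuolar ATPase, a pump with a membrane sector (V0) and an ATP-splitting sector (V1), makes that acid. *TFEB*, *TFE3* and *MITF* encode related factors that bind the letters CACGTG, in the longer form TCACGTGA, in front of many lysosomal genes. In autophagy, ATG8 proteins such as the products of *MAP1LC3B* and *GABARAPL1* are coupled to the membrane of a forming autophagosome, where receptors such as those encoded by *SQSTM1*, *NBR1* and *TAX1BP1* bring in cargo, and the filled vesicle then fuses with a lysosome.

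The HCT116 table ends on chromosome 9 and covers chromosomes 1 to 8, so it lists 21 of the 51 members, and 30 have NCI-H716 values only. After the filter on low counts, 19 members were tested in HCT116, 47 in NCI-H716 and 16 in both. Library totals were 13183792 to 13396225 counts in 3 HCT116 libraries but 3434620 in Z325 replicate 2, and 10210243 to 19738848 in NCI-H716. *EPCAM*, an epithelial marker, lay between 1424 and 1655 CPM (counts scaled to library size with TMM factors) in HCT116, and in NCI-H716 between 38.6 and 50.2 CPM. The scaling totals cover only the listed chromosomes in HCT116 but all of them in NCI-H716. Totals and CPM therefore cannot be compared between the lines. In NCI-H716 the neuroendocrine list (5 genes) summed to 464 and 507 CPM in controls and to 597 and 624 CPM after Z325. Within it *SCG3* was at 233 and 257 against 326 and 346 CPM, and *PCSK1* and *SCG2* also lay above both controls. *CHGA* overlapped, and *SYP* lay below both controls (6.89 and 8.24 against 4.51 and 4.72 CPM). The epithelial list of NCI-H716 (5 genes, with *CDH1* at 0 to 0.530 CPM) summed to 743 and 708 against 625 and 613 CPM. The fibroblast and endothelial list summed to 245 and 267 against 312 and 354 CPM, nearly all of it *COL3A1* and with *KDR* at 0, and the 3 leukocyte markers to at most 0.153 CPM. In HCT116 these 2 lists summed to at most 1.72 and 1.15 CPM, and the 2 listed neuroendocrine genes to between 14.8 and 22.5 CPM. The part of these shifts in the results below was not tested, and with bulk RNA fewer cells of a kind and less RNA per cell cannot be told apart.

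In HCT116, *TAX1BP1* rose and *ATP6V1A* fell in edgeR's quasi-likelihood test at an adjusted p under 0.05, that is 1 of 19 tested members higher and 1 lower, against 2.83% of all 6491 genes tested higher and 2.94% lower. Before adjustment (p under 0.05), 3 members lay higher (*MITF*, *TAX1BP1*, *ATG5*) and 4 lower (*GLB1*, *PPT1*, *ATP6V1A*, *ATP6V1B2*), beside 11.2% and 12.7% of all genes. In CPM, both Z325-treated libraries lay above both controls for 5 members and below them for 7, where 24.8% and 29.0% of all genes did so. The median log2 fold change of the members was -0.20 and that of all genes -0.03. With every library thinned to the depth of the shallowest, an alternative added after the data were seen, the members' median was -0.10.

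In NCI-H716, no member passed the adjusted threshold in either direction in the main edgeR fit (default filter, all libraries, no block). There, 0.403% of the 14142 genes tested were called higher and 0.099% lower. With the replicate number as a block, which no label ties to a shared culture, edgeR called 11 members higher and 4 lower. In that fit 7.5% of all genes were called higher and 9.45% lower. DESeq2 called 1 member, *NPC2*, and limma on log2(FPKM + 1) none. At an unadjusted p under 0.05, 9 members lay higher and 2 lower, 23.4% of the 47 tested, beside 16.9% of all genes (7.59% higher and 9.27% lower). In CPM, both treated libraries lay above both controls for 19 members and below them for 5, against 24.3% and 25.1% of all genes. The members' median log2 fold change was 0.12, and that of all genes was -0.01. The higher members were in the membrane, proton pump and autophagy groups (*LAMP1*, *NPC1*, *NPC2*, *ATP6V0E1*, *ATP6V1G1*, *MAP1LC3B*, *GABARAPL1*, *NBR1*, *TAX1BP1*), and both lower members were V0 subunits of the pump (*ATP6V0B*, *ATP6V0D1*). None of the 15 hydrolases tested was among these 11.

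**Figure D1:**
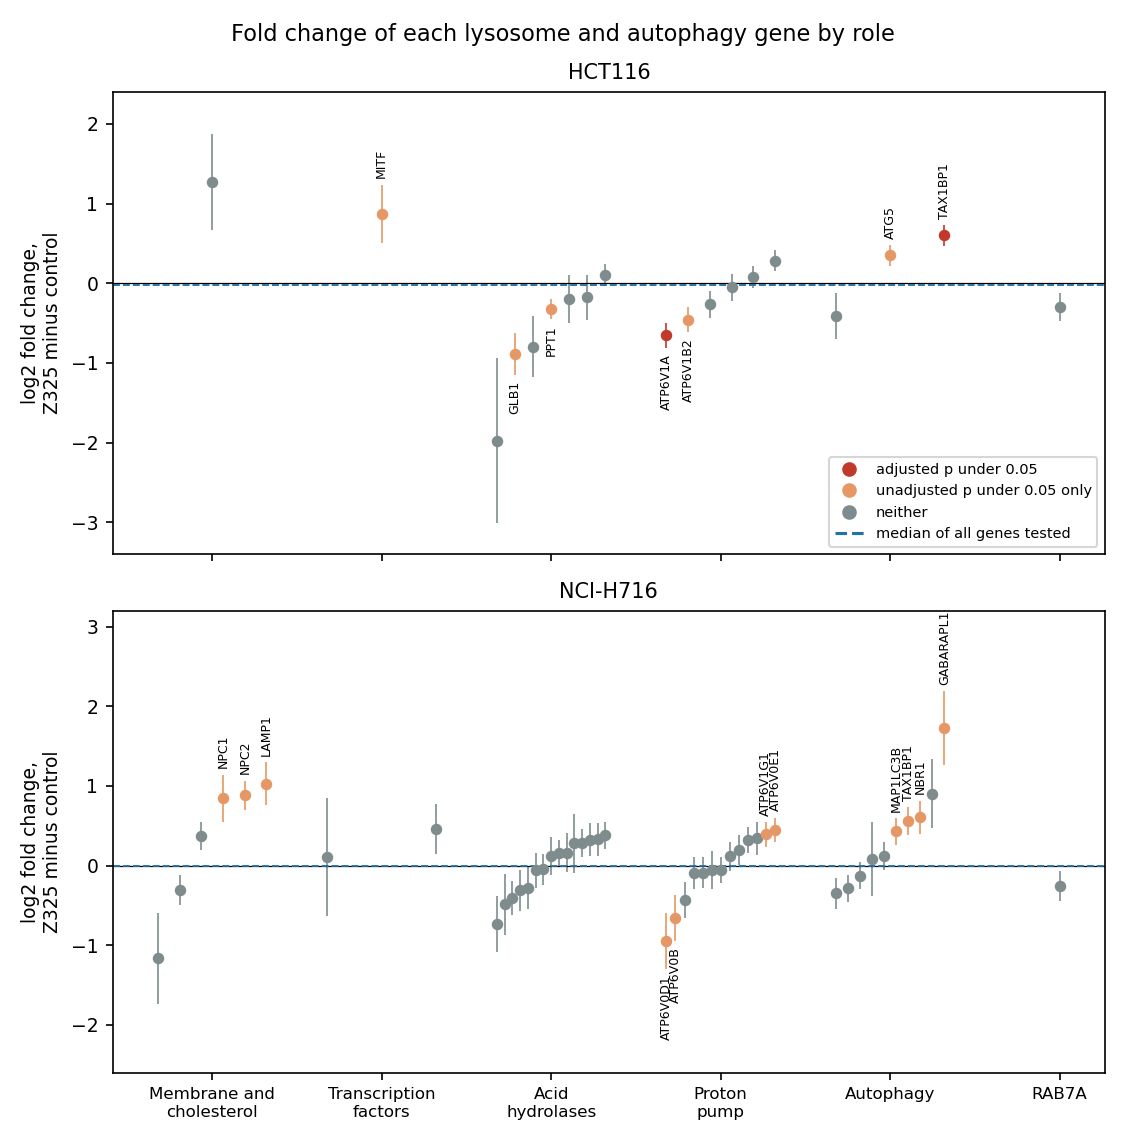
Log2 fold change (Z325 minus control, edgeR, vertical axis) of each tested member by role (horizontal axis), with its standard error as a bar. In HCT116 (top) *TAX1BP1* at 0.60 and *ATP6V1A* at -0.66 passed the adjusted threshold. In NCI-H716 (bottom) none did, and the labelled genes are those at an unadjusted p under 0.05. The dashed line is the median of all genes tested.

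The membrane group of NCI-H716 held the member with the smallest p in that line. *NPC2* (chr14:74476192-74494177, GRCh38, minus strand) encodes the soluble protein that lifts cholesterol out of the lysosomal lumen. Its level was 60.7 and 50.5 CPM in the controls and 111 and 94.6 CPM after Z325, so the groups did not overlap. The log2 fold change was 0.88 (SE 0.18) with an adjusted p of 0.076 in edgeR. The adjusted p was 0.00303 in DESeq2 and 0.184 in limma on log2(FPKM + 1). With 1 library left out, edgeR gave 0.00246 to 0.219, but such a fit holds 1 library in an arm and assumes that it varies like the other group, so a small p from it is no sign of stability.

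*NPC1* encodes the membrane protein that takes cholesterol over from NPC2. It went from 5.22 and 4.36 to 8.93 and 8.34 CPM, a log2 fold change of 0.84 (SE 0.30, adjusted p = 0.213 in edgeR). That difference depended on the scale. RSEM gave *NPC1* an effective length (the transcript length it divides by, weighted by isoform) of 907 and 1392 bases in the controls but 1802 and 2343 bases after Z325. Its TPM, which is per length, was 4.35 and 2.36 in the controls and 3.60 and 2.53 after Z325, so these groups overlapped, and the log2 fold change in limma was -0.019. For *NPC2* the effective length stayed between 501 and 526 bases, and the groups did not overlap in TPM either (87.1 and 73.7 against 160 and 132).

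*LAMP1* (chr13:113297239-113323672, plus strand) encodes one of the main glycoproteins of the lysosomal membrane. Its level was 11.6 and 11.8 CPM in the controls and 18.2 and 29.4 CPM after Z325. Both treated libraries were higher, but they lay far from each other, and the log2 fold change of 1.03 (SE 0.27) had an adjusted p of 0.128 in edgeR and 0.0514 in DESeq2. Without Z325 replicate 2 the log2 fold change was 0.66, and without Z325 replicate 1 it was 1.34. The related *LAMP2* went from 94.3 and 81.4 to 124 and 103 CPM (log2 fold change 0.37, SE 0.18, adjusted p = 0.318 in edgeR). In TPM its groups overlapped, at 21.1 and 14.8 in the controls and 22.6 and 18.0 after Z325.

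The other members of the group gave mixed values. *MCOLN1*, which encodes the lysosomal calcium channel mucolipin 1, was low throughout, with counts of 27 and 25 in the controls and 15 and 17 after Z325 (log2 fold change -1.16, SE 0.57, adjusted p = 0.325 in edgeR). Its groups overlapped in TPM (2.28 and 3.44 in the controls, 1.83 and 2.49 after Z325). *CD63*, a tetraspanin of late endosomes and the most abundant member per length in the NCI-H716 controls (TPM 671 and 594), had overlapping groups with a log2 fold change of -0.31 (SE 0.18). *LAMP3*, a stress-inducible relative of *LAMP1*, had counts of 0, 0, 0 and 7 in NCI-H716 and was not tested there. In HCT116, where *LAMP3* is the only listed member of the group, it was at 2.31 and 2.45 CPM in the controls and at 3.21 and 8.88 CPM after Z325. The highest value came from the shallow library, and the log2 fold change of 1.27 (SE 0.61, adjusted p = 0.246 in edgeR) was 0.45 without it.

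The promoters of the members were searched because the factors named above bind CACGTG. RefSeq promoters of 300 bases (250 before and 50 after the start, GRCh38.p14) were at hand for 38 of the 51 members, 56 promoters in all. CACGTG, which reads the same on both strands, was in 10 of these 56 (17.9%) and in 7.26% of all 35116 promoters. The longer TCACGTGA, which contains it, was in 6 (10.7%) and in 0.98% of all promoters. TGACNNNGC, the core of the antioxidant response element, was in 12 on either strand (21.4%, against 13.3% of all). The 250 bases before the *LAMP1* start (chr13:113296989-113297238, plus strand) hold 5 copies of CACGTG, shown in capitals.
LAMP1: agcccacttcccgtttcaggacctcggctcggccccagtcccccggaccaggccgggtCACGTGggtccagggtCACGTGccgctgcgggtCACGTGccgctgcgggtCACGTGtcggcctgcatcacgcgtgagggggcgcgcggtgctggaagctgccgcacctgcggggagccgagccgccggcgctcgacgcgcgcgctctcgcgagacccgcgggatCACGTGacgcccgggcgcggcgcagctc

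The other members with the longer letters are shown as windows of 30 bases with TCACGTGA in capitals. They are *ATP6V1G1* at chr9:114587699-114587728 (plus strand), *ATP6V0D1* at chr16:67481199-67481228 (minus), *GALNS* at chr16:88857104-88857133 (minus), *GAA* at chr17:80101493-80101522 (plus) and *MCOLN1* at chr19:7522571-7522600 (plus). *GAA* and *MCOLN1* have a second copy each in the same promoter.
ATP6V1G1: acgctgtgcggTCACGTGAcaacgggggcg
ATP6V0D1: cccccttatggTCACGTGAggcgcttgcgc
GALNS: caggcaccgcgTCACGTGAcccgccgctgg
GAA: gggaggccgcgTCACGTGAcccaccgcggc
MCOLN1: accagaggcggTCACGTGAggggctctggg
In NCI-H716 the log2 fold changes of the 6 members ran in both directions. They were 1.03 for *LAMP1* and 0.39 for *ATP6V1G1*, but -0.95 for *ATP6V0D1*, -0.73 for *GALNS*, -0.49 for *GAA* and -1.16 for *MCOLN1*, and no adjusted p was under 0.05 in edgeR. None of the 6 is listed in the HCT116 table. Of these 6 members, 2 lay above 0 and 4 below, beside 6982 and 7160 of all genes tested in NCI-H716. A match is a description of the letters, not of binding, and whether the factors act on these genes was not tested.

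Of the 3 transcription factors, *MITF* (chr3:69739456-69968336) had the larger values in HCT116. It was at 5.35 and 4.91 CPM in the controls and at 8.84 and 10.03 CPM after Z325, without overlap, with a log2 fold change of 0.87 (SE 0.37, unadjusted p = 0.0453 and adjusted p = 0.198 in edgeR). In NCI-H716 *MITF* had counts of 14 and 3 in the controls and 5 and 4 after Z325, too few to be tested. *TFEB*, the best known of the family, was near the limit of detection in both lines, with counts of 8, 8, 12 and 0 in HCT116 and 11, 8, 16 and 11 in NCI-H716, and its log2 fold change of 0.10 in the latter had an SE of 0.74 and became -0.53 without Z325 replicate 1. *TFE3* is listed in NCI-H716 only. It was at 6.21 and 6.01 CPM in the controls and at 10.2 and 6.79 CPM after Z325 (log2 fold change 0.46, SE 0.31, adjusted p = 0.482 in edgeR).

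The acid hydrolases among the members lay mostly below their controls in HCT116 and on both sides of them in NCI-H716. In HCT116, 6 of the 7 tested had a log2 fold change below 0 beside 3361 of all 6491 genes, and 5 lay below both controls, beside 29.0% of all genes. The median was -0.32, and none passed the adjusted threshold in edgeR. At an unadjusted p under 0.05, 2 of them were lower. On FPKM with a mean of at least 1 the median was -0.18. Outside the members, 11 hydrolases and their carriers were tested in HCT116, 6 with a log2 fold change above 0 and 5 below (median 0.08). *GLB1*, the beta-galactosidase used as a senescence marker, was at 44.3 and 47.2 CPM in the controls and at 20.4 and 29.8 CPM after Z325. Its log2 fold change was -0.89 (SE 0.26) with an adjusted p of 0.0852 in edgeR, 0.0269 in DESeq2 and 0.152 in limma on log2(FPKM + 1). With 1 library left out, it ran from 0.00316 (without the shallow library) to 0.426 (without control replicate 2) in edgeR, and the log2 fold change from -1.14 to -0.63. A pseudogene covers 7.4% of the *GLB1* exons and *TMPPE* 5.8%, so its counts are uncertain.

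*PPT1*, the palmitoyl-protein thioesterase lost in infantile Batten disease, was the most abundant hydrolase per length in HCT116. It went from 916 and 1014 to 798 and 748 CPM (log2 fold change -0.32, SE 0.13, adjusted p = 0.169 in edgeR). *ARSB*, a sulfatase of dermatan sulfate breakdown, went from 9.11 and 11.4 to 6.88 and 4.58 CPM (log2 fold change -0.80, SE 0.38, adjusted p = 0.249 in edgeR). *IDUA*, which acts on the same chains, had counts of 16 and 17 in the controls and 4 and 1 after Z325, and with an SE of 1.04 its log2 fold change of -1.97 was not called (adjusted p = 0.291 in edgeR). *MANBA* also lay below both controls, by a log2 fold change of -0.20, while *GUSB* (-0.18) and the ceramidase gene *ASAH1* (0.10) overlapped.

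*NEU1*, the lysosomal sialidase, cannot be read in HCT116. It had counts of 2, 0, 0 and 0 there, against 366 to 754 in NCI-H716. Of the 30 protein-coding genes within 500 kb of it, in the major histocompatibility region of chromosome 6, with at least 10 counts in every NCI-H716 library, 29 (96.7%) had at most 10 counts in every HCT116 library. Over all 4858 such genes of the table the share was 11.1%. The cause of this gap was not tested, and *NEU1* was left out of the HCT116 comparison by the filter on low counts.

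In NCI-H716, 15 hydrolases were tested, 8 with a log2 fold change above 0 and 7 below, with a median of 0.12 that became -0.043 without Z325 replicate 1, and the values ran from -0.73 for *GALNS* to 0.38 for *HEXA*. *HEXA*, the beta-hexosaminidase subunit lost in Tay-Sachs disease, had the smallest p of the group. It was at 68.0 and 66.1 CPM in the controls and at 79.5 and 94.8 CPM after Z325 (SE 0.17, adjusted p = 0.302 in edgeR). An RNA from the opposite strand covers 13.2% of its exons. *GALNS*, a sulfatase of keratan sulfate, was at 6.36 and 7.37 CPM in the controls and at 5.04 and 3.27 CPM after Z325 (SE 0.35, adjusted p = 0.318 in edgeR). *PPT1* had a TPM of 126 and 98.6 in the controls and of 101 and 73.9 after Z325, with overlapping groups (log2 fold change of counts -0.41, SE 0.21, adjusted p = 0.355 in edgeR).

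In CPM, both treated libraries lay above both controls for *GUSB*, *HEXA*, *NEU1*, *TPP1* and *PSAP*, which encodes the precursor of the saposins. Their log2 fold changes ran from 0.16 to 0.38. In TPM this held for *GUSB*, *HEXA* and *NEU1* only. *TPP1* overlapped there (8.28 and 9.57 in the controls, 12.5 and 9.22 after Z325), and so did *PSAP* (33.9 and 30.8 against 32.9 and 37.4). *GALNS* was the only hydrolase below both controls. *GLA*, *GLB1*, *GAA*, *ASAH1*, *ARSB*, *SGSH*, *IDS*, *MANBA* and *PPT1* overlapped. A second gene model covers 75.0% of the exons of *IDS*, and *RPL36A* covers 9.0% of those of *GLA*, so these counts are uncertain. *ARSA* and *IDUA* had at most 12 counts in any library and were not tested.

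**Figure D2:**
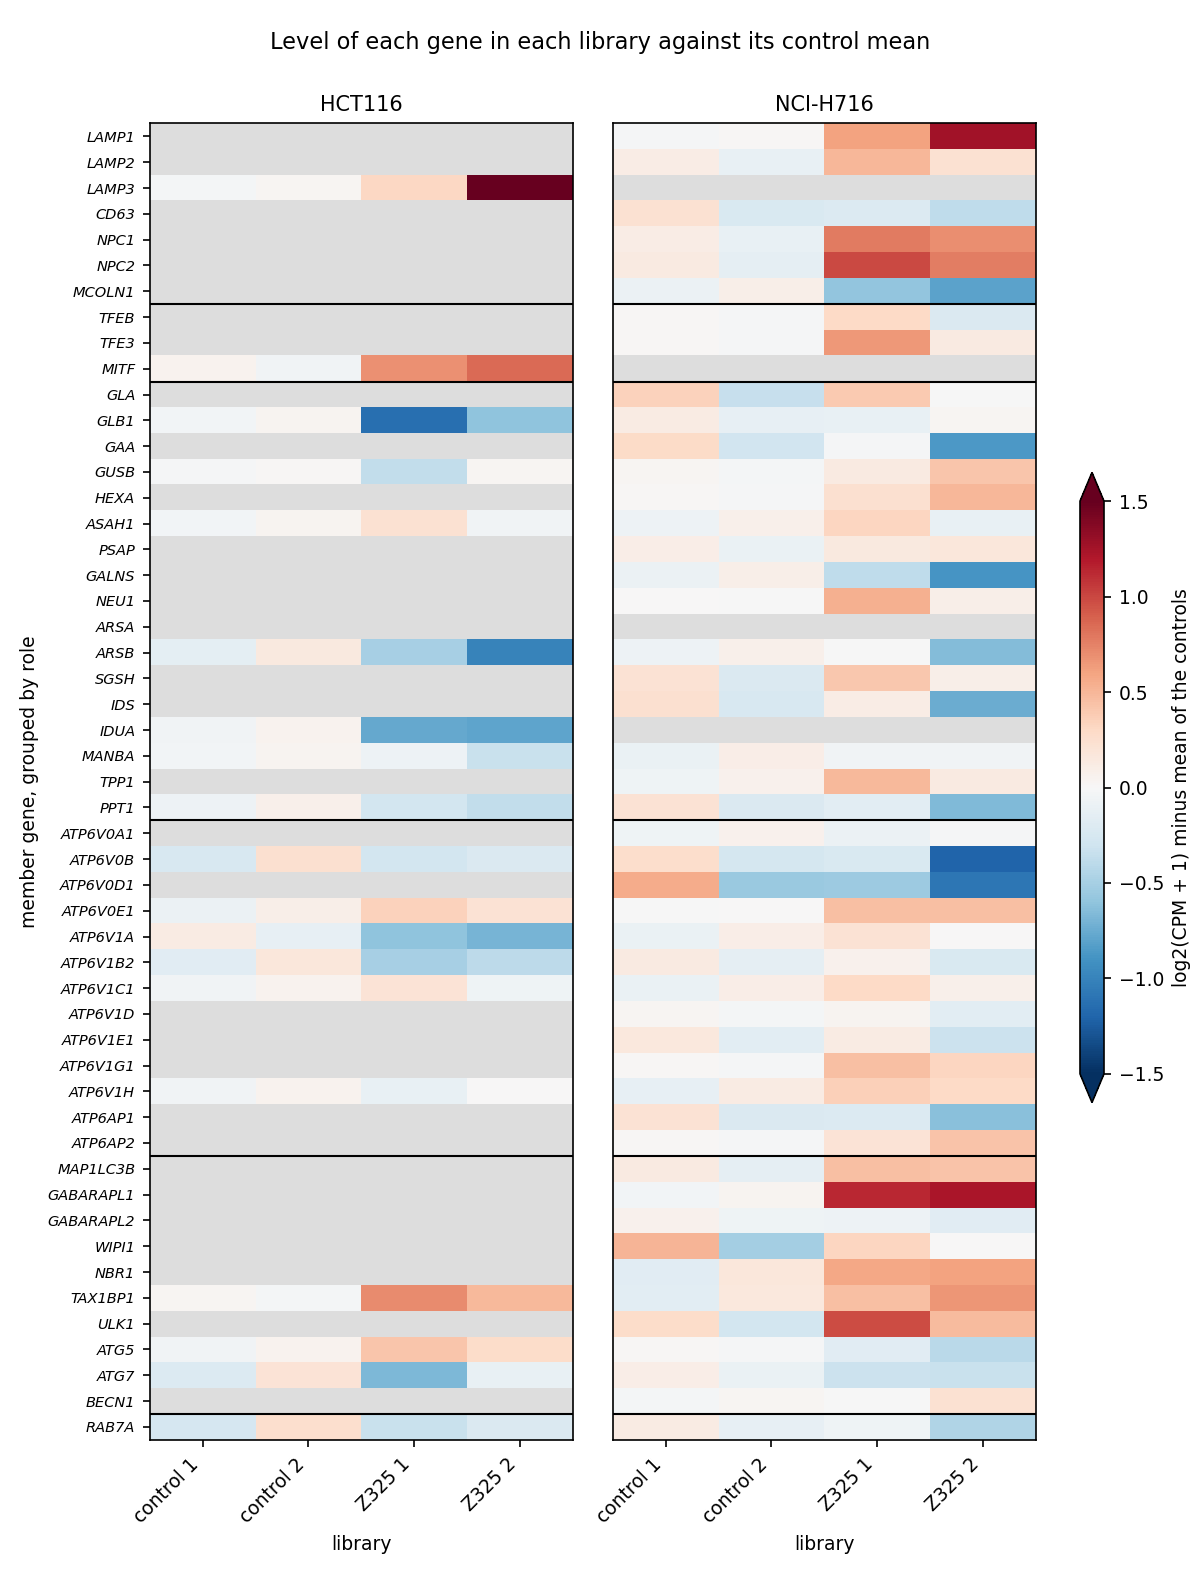
Level of each of the 51 members (rows, grouped by role) in each library (columns), as log2(CPM + 1) minus the mean of the controls of that line. Grey cells are genes not listed or not tested. In HCT116 the tested hydrolase rows are mostly blue after Z325. In NCI-H716 *LAMP1*, *NPC1*, *NPC2*, *GABARAPL1* and *ULK1* are red in both treated libraries, and the second treated library holds the deepest blue of *ATP6V0B* and *ATP6V0D1*.

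In the main edgeR fit (default filter, all libraries of a line, no block), the proton pump gave the only fall that passed the adjusted threshold. Other edgeR settings called further members lower. *ATP6V1A* (chr3:113746770-113812056, plus strand) encodes the catalytic subunit A of the V1 sector. In HCT116 it was at 209 and 177 CPM in the controls and at 127 and 118 CPM after Z325. Both treated libraries were lower, the log2 fold change was -0.66 (SE 0.15), and the adjusted p was 0.0445 in edgeR and 0.00915 in DESeq2. The call was lost without control replicate 1 (adjusted p = 0.307) or control replicate 2 (0.196) and in limma on log2(FPKM + 1) (0.101).

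*ATP6V1B2*, whose product sits beside subunit A in the ring that splits ATP, had groups without overlap in HCT116 as well, at 242 and 305 CPM in the controls and at 192 and 206 CPM after Z325 (log2 fold change -0.46, SE 0.15, adjusted p = 0.118 in edgeR). *ATP6V0E1*, a small V0 subunit and the most abundant member per length in HCT116, lay higher, at 812 and 922 against 1103 and 1007 CPM (log2 fold change 0.28, SE 0.13, adjusted p = 0.227 in edgeR). *ATP6V0B*, *ATP6V1C1* and *ATP6V1H* overlapped, with log2 fold changes of -0.26, 0.07 and -0.05. The median of the 6 pump genes tested in this line was -0.16.

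In NCI-H716 all 13 pump genes were tested and their median log2 fold change was -0.06, with 6 above 0 and 7 below. The sign of that median rested on single libraries, since it was 0.058 without control replicate 1, 0.022 without control replicate 2 and 0.13 without Z325 replicate 2. *ATP6V1A* itself was at 48.6 and 56.1 CPM in the controls and at 60.9 and 52.5 CPM after Z325, with overlapping groups (log2 fold change 0.12, SE 0.18, adjusted p = 0.793 in edgeR). *ATP6V0E1* had the smallest p of the group, at 205 and 207 CPM against 282 and 282 CPM (log2 fold change 0.45, SE 0.15, adjusted p = 0.197 in edgeR). *ATP6V1G1*, a stalk subunit, went the same way from 194 and 190 to 263 and 240 CPM (log2 fold change 0.39, SE 0.16, adjusted p = 0.248 in edgeR).

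The lowest values were those of 2 V0 genes. *ATP6V0D1*, whose product joins the membrane sector to the stalk, was at 40.6 and 18.3 CPM in the controls and at 18.4 and 12.4 CPM after Z325, so the second control lay at the level of the first treated library. The log2 fold change of -0.95 (SE 0.35, adjusted p = 0.225 in edgeR) was -0.25 without control replicate 1. *ATP6V0B*, a subunit of the proteolipid ring, was at 574 and 396 against 408 and 207 CPM, again overlapping (log2 fold change -0.66, SE 0.29, adjusted p = 0.286 in edgeR). *ATP6V1H* and the accessory gene *ATP6AP2* lay above both controls with log2 fold changes of 0.34 and 0.32, and *ATP6AP1*, *ATP6V0A1*, *ATP6V1B2*, *ATP6V1C1*, *ATP6V1D* and *ATP6V1E1* overlapped. In all, 4 pump genes lay above both controls in this line (24.3% of all genes did), 0 below (25.1%) and 9 overlapped.

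In the main edgeR fit (default filter, all libraries of a line, no block), autophagy gave the only rise of a member that passed the adjusted threshold. Other edgeR settings called further members higher. *TAX1BP1* (chr7:27739331-27844564, plus strand) encodes a cargo receptor that binds ubiquitinated protein aggregates. In HCT116 it was at 473 and 456 CPM in the controls and at 758 and 650 CPM after Z325. Both treated libraries were higher, the log2 fold change was 0.60 (SE 0.13), and the adjusted p was 0.039 in edgeR and 0.0022 in DESeq2. The call was lost without control replicate 1 (adjusted p = 0.224) or control replicate 2 (0.313) and in limma on log2(FPKM + 1) (0.0911).

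In NCI-H716 *TAX1BP1* went the same way, from 160 and 199 to 245 and 284 CPM, without overlap (log2 fold change 0.56, SE 0.17, adjusted p = 0.175 in edgeR). *JAZF1* covers 4.5% of its exons and an antisense RNA 1.9%. As the member with a called rise its promoter was read, and the 250 bases before the downstream of its 2 RefSeq starts (chr7:27739912-27740161, plus strand) hold neither CACGTG nor TGACNNNGC, and neither does the upstream one. For *ATP6V1A*, the member with a called fall, the promoter is not shown.
TAX1BP1: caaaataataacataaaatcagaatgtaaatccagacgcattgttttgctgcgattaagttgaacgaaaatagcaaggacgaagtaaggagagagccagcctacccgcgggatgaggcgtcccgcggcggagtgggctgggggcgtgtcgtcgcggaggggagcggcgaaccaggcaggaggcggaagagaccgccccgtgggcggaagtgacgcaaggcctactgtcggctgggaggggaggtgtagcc

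The other receptor among the members, *NBR1*, is listed in NCI-H716 only. It was at 19.8 and 25.4 CPM in the controls and at 34.1 and 34.7 CPM after Z325 (log2 fold change 0.61, SE 0.21, adjusted p = 0.20 in edgeR). *MAP1LC3B*, the ATG8 gene whose lipidated protein is the usual marker of autophagosomes, was at 126 and 104 against 156 and 154 CPM (log2 fold change 0.43, SE 0.17, adjusted p = 0.243 in edgeR). Its reads can be shared with the near-identical *MAP1LC3B2*, so its count is uncertain.

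*GABARAPL1* had the largest fold change of any member in NCI-H716, from very few reads. Its counts were 15 and 13 in the controls and 50 and 82 after Z325, that is 1.14 and 1.26 against 3.82 and 4.12 CPM (log2 fold change 1.73, SE 0.47, adjusted p = 0.138 in edgeR). On the TPM scale the groups overlapped, at 0.58 and 2.16 against 1.87 and 2.07, because RSEM gave it an effective length of 440 bases in control replicate 2 and of 1420 to 1480 bases in the other libraries. *GABARAPL1-AS1* covers 8.1% of its exons, and the libraries were not stated to be stranded. *GABARAPL2*, the more abundant paralog, was at 114 and 103 CPM against 103 and 96.3 CPM, below both controls by a log2 fold change of -0.12 (SE 0.16).

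The genes that start autophagosomes and couple ATG8 to lipid did not share a direction. *ULK1*, the kinase that starts the process, was at 3.33 and 1.94 CPM in the NCI-H716 controls and at 6.03 and 3.97 CPM after Z325 (log2 fold change 0.90, SE 0.43, adjusted p = 0.318 in edgeR). *BECN1* and *WIPI1*, which act at the forming membrane, overlapped with log2 fold changes of 0.12 and 0.08. *CNTD1* covers 12.4% of the exons of the first and *ARSG* 24.4% of those of the second, each from the opposite strand. *ATG5*, part of the conjugation complex, was at 444 and 478 CPM in the HCT116 controls and at 618 and 558 CPM after Z325 (log2 fold change 0.35, SE 0.13, adjusted p = 0.143 in edgeR), but at 152 and 148 against 133 and 112 CPM in NCI-H716 (log2 fold change -0.29, SE 0.17, adjusted p = 0.408). *ATG7*, the activating enzyme, had log2 fold changes of -0.41 (SE 0.28) in HCT116 and -0.35 (SE 0.20) in NCI-H716, and *VGLL4* covers 18.1% of its exons. The median over the autophagy members was 0.35 for the 3 tested in HCT116 and 0.28 for the 10 tested in NCI-H716. Over autophagy genes outside the members it was -0.25 for the 17 tested in HCT116 and 0.12 for the 38 tested in NCI-H716. *RAB7A*, the GTPase that drives fusion with the lysosome, overlapped in both lines, with log2 fold changes of -0.30 (SE 0.17) in HCT116 and -0.25 (SE 0.19) in NCI-H716. With 1 library left out these ran from -0.53 to -0.029 and from -0.45 to -0.056.

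**Figure D3:**
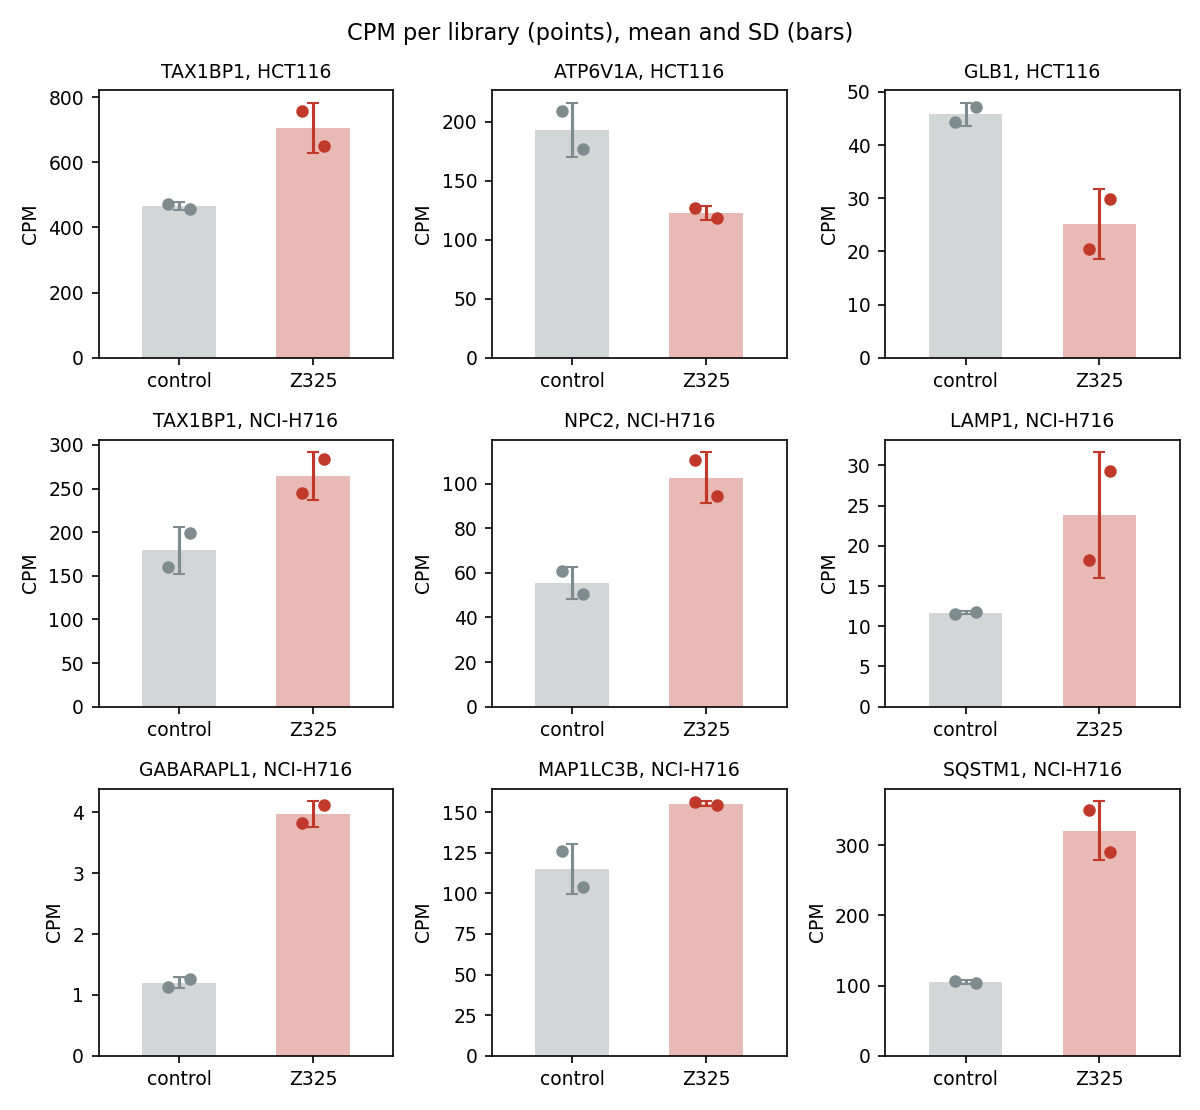
CPM (vertical axis, from 0) in control and Z325-treated libraries (horizontal axis) for 9 genes and lines named in each title. Points are the 2 libraries of a group, bars their mean, and error bars their SD. The groups do not overlap in any panel, and the treated libraries of *LAMP1* (18.2 and 29.4 CPM) lie farthest apart for their level.

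Of the 16 members tested in both lines, 12 (75.0%) had the same sign, as did 57.4% of the 5014 genes tested in both. *TAX1BP1* and *ATP6V0E1* were above both controls in both lines, and no member was below both controls in both. The share of all genes that lay so in both lines was not computed, so no excess is read from this. Whether the response differed by line was asked with an interaction term in edgeR over 7642 genes. That test held 20 members, the 16 above and *LAMP3*, *TFEB*, *MITF* and *NEU1*. Each of the latter had too few counts in HCT116 or in NCI-H716 to be tested there. A difference between the lines cannot be read for them, so the count of 20 overstates the members compared. None of the 20 was called by edgeR or DESeq2 (0.0654% of all genes were in edgeR). At an unadjusted p under 0.05 in edgeR there were 4, *MITF* among them, beside 14.3% of all genes. In NCI-H716 minus HCT116, these were 0.76 for *ATP6V1A* (SE 0.24, adjusted p = 0.21), 0.83 for *GLB1* (SE 0.33, adjusted p = 0.28), -0.65 for *ATG5* (SE 0.21, adjusted p = 0.213) and -2.19 for *MITF* (SE 0.94, adjusted p = 0.318), the last from counts of 14 or fewer in NCI-H716. For *TAX1BP1* the difference was -0.05 (SE 0.22).

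**Figure D4:**
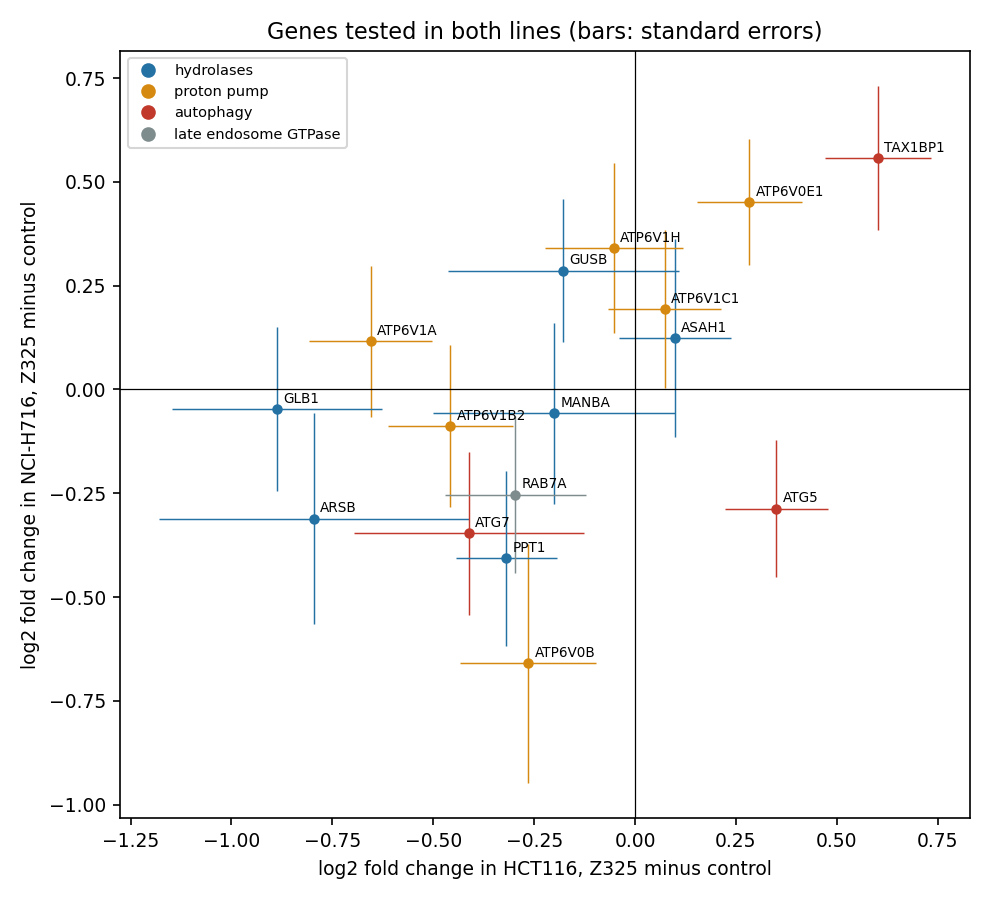
Log2 fold change (Z325 minus control) in HCT116 (horizontal axis) and NCI-H716 (vertical axis) for the 16 members tested in both lines, with standard errors as bars and roles as colours. *TAX1BP1* lies at 0.60 and 0.56, while *ATG5* (0.35 and -0.29) and *ATP6V1A* (-0.66 and 0.12) lie in quadrants of opposite sign.

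Another 129 genes of the same pathways were read as background to the members. In HCT116, 57 of them were tested, and in edgeR 2 rose and 2 fell at the adjusted threshold, beside 2.83% and 2.94% of all genes. *ATG12*, the protein that is joined to ATG5, rose from 660 and 706 to 992 and 983 CPM (log2 fold change 0.53, SE 0.12, adjusted p = 0.0424). *LAMTOR3*, part of the scaffold that holds mTORC1 on the lysosome, rose by a log2 fold change of 0.61 (SE 0.14, adjusted p = 0.0424). *HYAL2*, a hyaluronidase, fell by 1.81 on the log2 scale (SE 0.31, adjusted p = 0.0171), and *ATP6V0E2*, the paralog of *ATP6V0E1*, fell by 2.27 (SE 0.54, adjusted p = 0.0488) from counts of 71 and 132 to 19 and 6. All 4 calls were lost when either control was left out. Other genes cover 11.5% of the exons of *HYAL2* and 12.8% of those of *ATP6V0E2*.

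In NCI-H716, 115 were tested, and in edgeR 2 rose and none fell at the adjusted threshold, beside 0.403% and 0.099% of all genes. Before adjustment (p under 0.05), 14 lay higher and 3 lower, where 7.59% and 9.27% of all genes did. *SQSTM1*, the p62 receptor that acts beside TAX1BP1 and NBR1, rose from 107 and 103 to 351 and 291 CPM (log2 fold change 1.61, SE 0.17, adjusted p = 0.00221 in edgeR), though 21.0% of its exon bases overlap *MRNIP*. *IGF2R*, the receptor that delivers hydrolases to lysosomes, rose from 15.1 and 19.5 to 38.7 and 63.4 CPM (log2 fold change 1.57, SE 0.26, adjusted p = 0.0297 in edgeR), a call lost without control replicate 1 (adjusted p = 0.152). In limma on log2(FPKM + 1) neither was called (adjusted p = 0.0555 and 0.277). In HCT116 *SQSTM1* had counts of 5 and 15 in the controls and 148 and 5 after Z325, so its log2 fold change of 3.19 (SE 0.93, adjusted p = 0.0852 in edgeR) came from 1 library. Its counts in the NCI-H716 controls were 1408 and 1067, and the cause of the low HCT116 counts was not tested.

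By list, the tested genes called at the adjusted threshold in HCT116 were 1 of 11 other hydrolases and their carriers (lower), 0 of 12 other lysosomal membrane proteins, 1 of 5 other pump genes (lower), 1 of 17 other autophagy genes (higher) and 1 of 12 genes of vesicle fusion and mTORC1 on the lysosome (higher). At an unadjusted p under 0.05 the 12 membrane proteins had 1 higher and 0 lower. Of all genes in HCT116, 2.83% were called higher and 2.94% lower, and 11.2% and 12.7% lay so at that unadjusted p. In NCI-H716 the same lists gave 1 of 28 (higher), 0 of 17, 0 of 11, 1 of 38 (higher) and 0 of 21. At an unadjusted p under 0.05, the 3 lists without a call had 1 higher and 0 lower, 0 either way, and 4 higher and 1 lower. Of all genes in NCI-H716, 0.403% were called higher and 0.099% lower, and 7.59% and 9.27% lay so at that unadjusted p.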

How the data were processed

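For NCI-H716 the authors deposited RSEM output, in which every gene of a library has its expected count beside values in TPM and FPKM. For HCT116 the authors deposited 1 table of raw read counts with gene lengths, in the layout of featureCounts. The paper names TrimGalore v0.4.5, STAR v2.6.1c, GRCh38 and RSEM v1.3.1, whereas the submitters' processing notes list Bowtie2 2.5.0, featureCounts and hg38. Of the HCT116 table, 4 unfinished lines were left out and 28043 genes used. Its TPM and FPKM were computed here from counts, lengths and listed totals. The authors' treatment of reads shared between genes is not given in the sources used here.

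Expected counts were rounded. Each line was fitted alone in edgeR 4.0.16 (TMM, filterByExpr, quasi-likelihood test, Benjamini-Hochberg adjustment over all genes tested, threshold 0.05), and the interaction over all 8 libraries. DESeq2 1.42.0 and limma 3.58.1 served as alternatives. With 2 libraries against 2, an exact permutation test cannot go below p = 0.333. Members and lists were chosen with earlier results of these data known. Values per library are given for members called in either line, the 3 smallest p per line and role, the transcription factors and ATG8 members, and for up to 5 called pathway genes per line. *LAMP2*, *CD63*, *MCOLN1*, *ATP6V0B*, *ULK1*, *IDUA* and *SQSTM1* in HCT116 were added after their values were seen. On simulated data with 200 genes changed 4-fold, edgeR called 94% with 5 false calls over 6304 genes for HCT116, 97% with 15 over 13833 for NCI-H716, and 77% of 235 with 6 over 5008 for the interaction. All planted changes were 4-fold and in genes above a count floor, so these shares do not carry over to smaller changes or few counts. Every gene of a line was simulated with the same dispersion (variance beyond counting). Genes that vary more, and false calls from them, are therefore not covered. R was version 4.3.3 and Python 3.11.15, with matplotlib 3.10.9 and pandas 2.3.3. Gene positions are those of GENCODE v44.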

Additional observations from a re-analysis of the deposited data

How the results depend on the processing

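In all, 54 results were recomputed under 689 combinations with an alternative, of which 566 kept direction and side of the threshold or stayed within the spread between libraries. Most gene results had an adjusted p above the threshold in the main fit, so staying on that side shows little about stability. Depth limits HCT116 Z325 replicate 2 and every member with few counts. In HCT116 the members called lower numbered 2 (*ATP6V1A*, *GLB1*) with DESeq2, with at least 10 counts in every library and without a filter, and the members called higher and lower were 0 and 0 in limma on log2(FPKM + 1), on log2(FPKM + 0.1), and over genes whose FPKM averaged 1 or more, which also put the hydrolase median at -0.18. Thinning, chosen after seeing the data, put the HCT116 medians at -0.10 for members and 0.45 for autophagy genes, and the NCI-H716 autophagy median at 0.34. In NCI-H716 DESeq2 called 1 member higher (*NPC2*). Without a filter 3 were higher (*GABARAPL1*, *LAMP1*, *NPC2*) and 2 lower (*ATP6V0B*, *ATP6V0D1*), where 0.907% and 1.52% of all genes were. The autophagy median was 0.31 in limma on log2(FPKM + 0.1) and 0.24 over genes whose FPKM averaged 1 or more. *NPC1* reversed to -0.019, -0.016 and -0.019 in the 3 limma settings, which divide by the effective length that grew after Z325.

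No label pairs the libraries by replicate number. Same-numbered deviations correlated at -0.03 in HCT116 and 0.20 in NCI-H716, which cannot decide pairing with 2 libraries per group. With the replicate block, 11 members were called higher and 4 lower in NCI-H716, where 7.5% and 9.45% of all genes were, and the autophagy median was 0.32.

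Leaving out each library in turn, which leaves 1 library in an arm and assumes it varies like the other group, gave 0 to 2 members higher and 0 to 2 lower in HCT116, and 0 to 3 higher and 0 to 4 lower in NCI-H716. The HCT116 medians ran from -0.26 to -0.029 (members), -0.40 to -0.25 (hydrolases), -0.30 to -0.0084 (proton pump) and 0.26 to 0.45 (autophagy). The NCI-H716 medians ran from 0.014 to 0.22, -0.043 to 0.16, -0.012 to 0.13 and 0.24 to 0.43. *TFEB* in NCI-H716 ran from -0.53 to 0.61, and the interaction of *TAX1BP1* from -0.16 to 0.17, with 0.0037, 0.17, 0.11 and 0.09 in the 4 reversed cases.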
